A study of Mus musculus with 44 samples.

Results

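The 10 genes described here encode the lysine acetyltransferases best known for acetylating histones, the CBP and p300 pair (Crebbp and Ep300), the GNAT enzymes Kat2a and Kat2b, the MYST enzymes Kat5, Kat6a, Kat6b, Kat7 and Kat8, and Hat1. They were taken by name, by a rule that uses no measured value but with earlier results of these data known, from the 55335 genes of a count table of ribosome-bound mRNA from mouse hippocampus, and all 10 had enough counts to be tested in every comparison. The mice carried Emx1-Cre, which is active in mostly excitatory forebrain neurons and their progenitors, and the NuTRAP cassette. After Cre recombination the cassette tags ribosomes and the nuclear envelope, so that mRNA of the marked cells can be enriched (translating ribosome affinity purification, TRAP). Markers of other cell types, given below, were also found in the libraries. Early-life exercise (ELE) mice had a running wheel in the cage between postnatal days 21 and 41, and sedentary mice had none. All mice were male, and all groups, sedentary ones included, carried the same 2 transgenes. RNA was taken either together with nuclei from both hippocampi of a mouse (simultaneous INTACT and TRAP, SIT; 4 ELE and 4 sedentary libraries) or alone from the left or the right hippocampus (separate isolation, with 3 ELE and 3 sedentary libraries per side). Each of the 20 libraries came from another mouse, the left and right ones included.

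Histone acetyltransferases move an acetyl group from acetyl-CoA onto lysines of histone tails, which loosens chromatin and creates binding sites for bromodomain proteins. Most work as the catalytic subunit of a larger complex that sets where in the genome and on which lysine they act. The study profiled acetylated lysine 8 of histone H4, a mark to which several of these enzymes can contribute, and in the hippocampus CBP, p300 and their relatives are known for their part in activity-dependent transcription and in memory. The counts here measure the ribosome-bound mRNA of the enzymes, and neither their protein nor their activity was measured.

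In the GENCODE annotation of GRCm38, the genes lie apart, on 9 chromosomes, with Kat2a and Kat7 both on chromosome 11. Crebbp (ENSMUSG00000022521.10) spans chr16:4081328-4213997 on the minus strand and Ep300 (ENSMUSG00000055024.12) chr15:81585351-81652077 on the plus strand. Kat2a (ENSMUSG00000020918.14) spans chr11:100704746-100712465 on the minus strand, and Kat2b (ENSMUSG00000000708.14) the far longer chr17:53566861-53672720 on the plus strand. Of the MYST genes, Kat5 (ENSMUSG00000024926.10) spans chr19:5603014-5610237 (minus), Kat6a (ENSMUSG00000031540.14) chr8:22859535-22943259 (plus), Kat6b (ENSMUSG00000021767.19) chr14:21481434-21672478 (plus), Kat7 (ENSMUSG00000038909.16) chr11:95274259-95310246 (minus) and Kat8 (ENSMUSG00000030801.10) chr7:127912516-127925837 (plus). Hat1 (ENSMUSG00000027018.11) spans chr2:71388958-71441622 on the plus strand. The values below count reads over all exons of a gene, coding and untranslated, and so do not separate isoforms.

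Promoter sequences are shown for 3 members that the levels turn on. They have the highest (Kat2a) or the lowest (Kat6b) mean per kilobase of total exonic length, or the best supported difference between isolation methods (Kat7). These ranks do not hold per longest transcript, and Hat1 was lower than Kat6b in most SIT libraries. Each sequence is the 250 bases before a RefSeq transcript start of GRCm38.p6, with no annotated exon of the strand of the gene in it. It is written 5′ to 3′ on that strand. Capitals mark TGACG, the core of the site bound by CREB, and GGGCGG, the GC box, on either strand.
Kat2a, chr11:100712468-100712717, minus strand: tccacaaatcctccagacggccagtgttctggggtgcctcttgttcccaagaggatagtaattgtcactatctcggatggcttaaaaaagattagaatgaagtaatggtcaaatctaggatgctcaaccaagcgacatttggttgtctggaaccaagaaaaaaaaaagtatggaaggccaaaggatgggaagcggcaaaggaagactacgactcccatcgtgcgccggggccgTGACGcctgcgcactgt
Kat7, chr11:95310247-95310496, minus strand: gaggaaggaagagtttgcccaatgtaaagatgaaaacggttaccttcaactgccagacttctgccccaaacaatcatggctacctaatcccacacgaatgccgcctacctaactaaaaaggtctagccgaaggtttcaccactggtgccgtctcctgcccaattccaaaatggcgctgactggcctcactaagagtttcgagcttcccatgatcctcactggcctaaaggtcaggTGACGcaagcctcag
Kat6b, chr14:21499520-21499769, plus strand: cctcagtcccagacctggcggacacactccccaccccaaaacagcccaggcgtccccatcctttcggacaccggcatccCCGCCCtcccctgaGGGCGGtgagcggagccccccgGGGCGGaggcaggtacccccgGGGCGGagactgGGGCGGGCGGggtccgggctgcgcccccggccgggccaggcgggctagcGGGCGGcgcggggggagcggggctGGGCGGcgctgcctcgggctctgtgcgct
The Kat6b window lies inside the gene, before an inner start. It was 78.8% G or C and held 8 GC boxes, whereas the Kat2a window (48.8% G or C) and the Kat7 window (50.8%) held none and had 1 TGACG each. Among the 9 members with an entry, TGACG lay in 6 of 13 windows, those of 5 genes (Kat2a, Kat2b, Kat5, Kat7 and Kat8), against 17.9% of the 32536 windows of all genes. The GC box lay in 8 of the 13 windows, of 6 members, against 33.0% of all windows, and CCAAT in 6 windows, of 5 members (33.8%). The full CRE, TGACGTCA, was in none of them (1.56% of all windows), and neither was TATAAA (12.3%). Genes with more than 1 listed start had more than 1 window in these counts. The Kat6b windows, chr14:21499520-21499769 and chr14:21499535-21499784, overlap, so that the same GC boxes count in both. In the windows of Ep300, Crebbp and Hat1 all 250 bases lie in annotated exons of the strand of the gene. Some other windows lie in such exons in part. Kat6a was not among the entries.

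Between 45895097 and 65767802 counts were deposited per library. A pair of sedentary SIT libraries stood apart and were, with 1 ELE SIT library, the ones the study left out of its comparisons. Mitochondrial genes took 8.64% and 9.64% of their counts, against 0.0704% to 0.523% in the 17 compared libraries. The 6 inhibitory neuron markers summed to 817 and 854 counts per 1000000 counts (CPM) in them, against 40.5 to 76.2 in the compared libraries and 108 in the left-out ELE library, and the 6 microglia markers to 179 and 188 CPM, against 2.34 to 7.09 and 9.05. Excitatory neuron markers were high everywhere, their 7 genes summing to between 6763 and 10183 CPM in the compared libraries. Astrocyte markers (1840 to 5289 CPM) and oligodendrocyte markers (2312 to 3835 CPM) were also well above the floor in the compared libraries, and choroid plexus markers ranged from 17.3 to 1270.2 CPM. Among the compared libraries, 1 ELE SIT library also stood apart, with 0.731% of its counts on rRNA genes outside the mitochondrial genome, against at most 0.172% in the others, and with the highest mitochondrial share of them, 0.523%. In such bulk libraries, fewer cells of a type cannot be told apart from less RNA per cell. Unless stated otherwise, values below are from the 17 compared libraries, which hold 3 ELE and 2 sedentary SIT libraries, and CPM are scaled by TMM over all libraries.

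Per kilobase of exonic length, 3 members stood well above the others. Kat2a, the catalytic subunit of SAGA and ATAC, had 20.2 ± 1.16 CPM per kb (SD, n = 17), higher than 86.7% of the 20320 genes with a length. Kat7, which acetylates histones H3 and H4 in the HBO1 complex, had 14.4 ± 1.57, and Kat5, the acetyltransferase of NuA4 (TIP60), had 12.3 ± 0.812. Kat2a was above Kat7 in 17 of 17 libraries, Kat7 above Kat5 in 14, and Kat5 above Kat8 in 17. The libraries with Kat5 above Kat7 (TG9.1.1, TG9.1.3 and TG9.2.2) were all separately isolated. The other 7 genes lay between 2.44 and 5.52 CPM per kb, still above the median of all genes tested, 2.04. Kat8, the H4 enzyme of the MSL and NSL complexes, led these with 5.52 ± 0.455, followed by Kat6a (4.29 ± 0.634), the catalytic subunit of the MOZ complex, and Crebbp (3.73 ± 0.339). Ep300 (3.19 ± 0.425) and Kat2b (3.19 ± 0.432) could not be ordered, Ep300 being the higher in 8 of 17 libraries. Hat1, which acetylates newly made H4 before it is placed in chromatin, had 2.59 ± 0.361, and Kat6b, the close relative of Kat6a, had 2.44 ± 0.235. Hat1 exceeded Kat6b in 11 of 17 libraries, so that their order was not clear. In SIT it did so only in the sedentary library NT6.305 (3.08 against 2.28 CPM per kb). In separate isolation it was the lower only in TG9.2.1 and TG9.2.2. Of neighbours in the order, the remaining pairs kept theirs in 14 to 16 libraries.

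**Figure D1:**
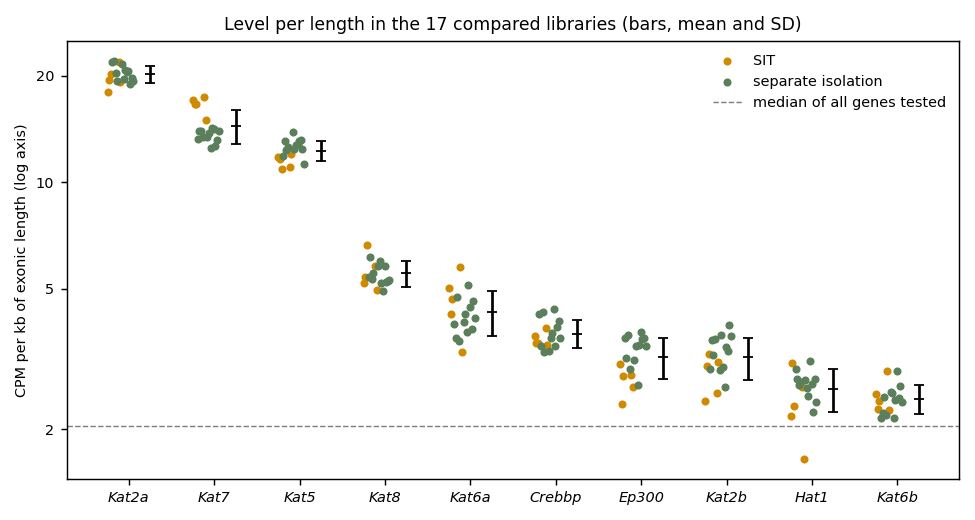
Level of each gene in CPM per kb of exonic length (log axis) in the 17 compared libraries, one point per library, SIT and separate isolation in separate colours, with mean and SD beside them and the median of all genes tested as a dashed line. Kat2a, Kat7 and Kat5 lie above 10 CPM per kb in every library, and no other gene reaches 7.

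The order depends on the length used. With the longest annotated transcript in place of all exonic bases, Kat7 (22.4 CPM per kb) came before Kat2a (21.5) and Kat5 (19.2), and Kat6b moved from last to 5.33, above Kat6a, Ep300 and Crebbp, because its exonic bases (16826) far exceed its longest transcript (7699). Each member had between 247 and 5586 counts in each compared library, Hat1 having the fewest. Of the 100-base stretches of their transcripts, 8.03% of those of Kat5 also occur in Rnaseh2c on the opposite strand, and 1.86% of those of Kat2b in its pseudogene Kat2b-ps, while for each of the other 8 genes the share was below 1%.

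The SD of log2 CPM between mice of the same group had a median of 0.14 over the 10 genes, against 0.22 over all genes tested. All members lay above the median level per kb of those genes, and genes of matched level were not compared. Kat5 (0.07), Kat7 (0.08) and Kat2a (0.08) had the smallest spread, and Kat6a (0.23) and Hat1 (0.19) the widest. Kat6a ranged from 30.4 to 52.7 CPM within the 3 ELE SIT libraries alone.

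**Figure D2:**
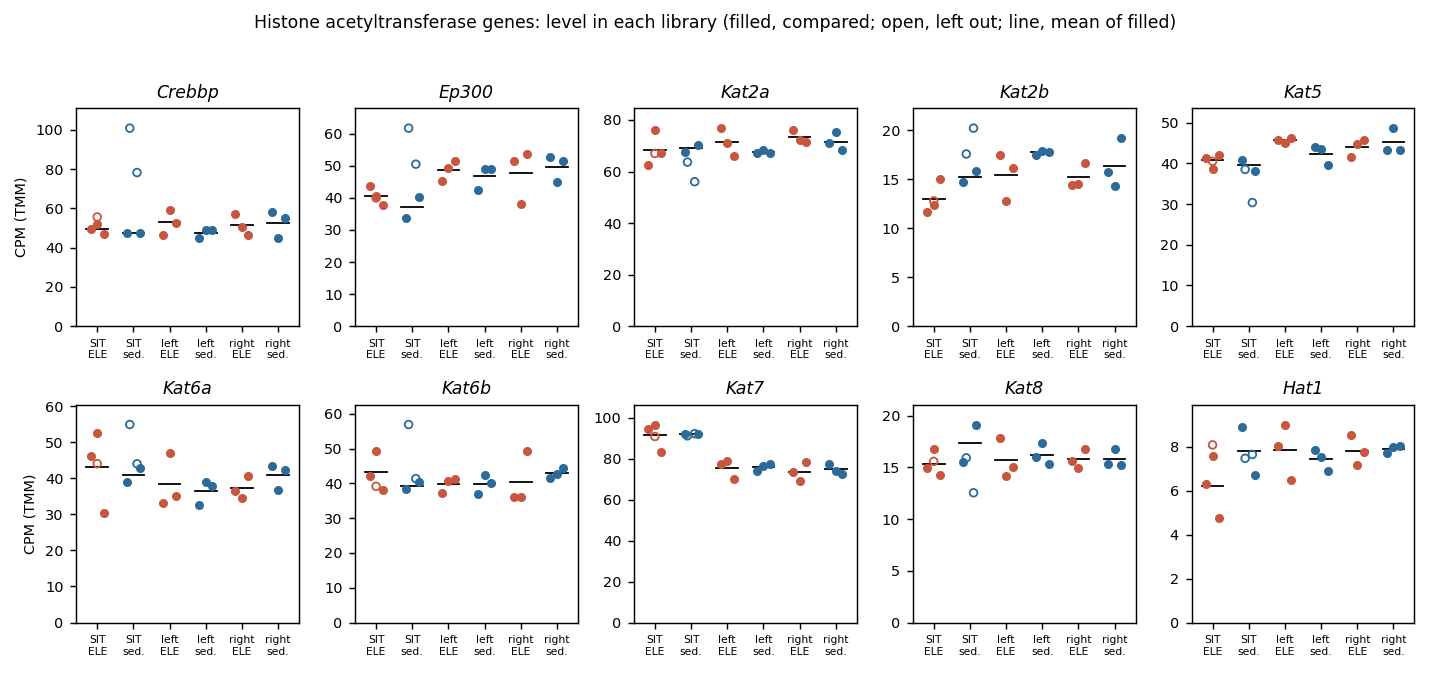
CPM of each gene in every library, in panels by gene and columns by group, with ELE in red and sedentary in blue. Filled points are the compared libraries, open points the 3 SIT libraries left out of the comparisons, and lines the mean of the filled points. The open sedentary points of Crebbp, at 78.2 and 101 CPM, lie above all its other points, and Kat7 is higher in all SIT columns than in the left and right ones.

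The first question was whether ELE changed the mRNA of these enzymes. No member differed between ELE and sedentary mice at an adjusted p under 0.05 in SIT, left or right libraries with edgeR's quasi-likelihood test, nor with DESeq2. None had an unadjusted p under 0.05 in any of these 3 comparisons, where 5.48%, 3.94% and 2.78% of all genes tested did, and no gene of the table passed the adjusted threshold with edgeR (0% of genes in each), while DESeq2 called 17, 3 and 13 genes, none of them a member. The log2 fold changes of the members lay between -0.33 and 0.13 in SIT, between -0.20 and 0.15 on the left and between -0.13 and 0.04 on the right. Over the 3 sets together, with the set as a term and 17 mice, no member passed the adjusted threshold either (0% of all genes). Of the 10, 1 gene, Kat2b, had an unadjusted p under 0.05, as 7.25% of all genes did.

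The intervals limit how large a change could be. Over the 3 sets together the 95% interval of every member lay within a 1.3-fold change either way, which held for 48.2% of all genes tested. With all 8 SIT libraries this held for 8 of 10 members. Kat7 had the narrowest interval, from -0.11 to 0.08 (log2), and Kat2b and Hat1 reached furthest, to -0.35 and -0.30. In single sets the same held for 4 of 10 members in SIT (20.1% of all genes), for 6 members in left libraries (33.5%) and for 9 in right libraries (34.4%). The widest was Hat1 in SIT, from -0.89 to 0.24, so that a level in ELE mice as low as 0.538 of the sedentary level lay within it.

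**Figure D3:**
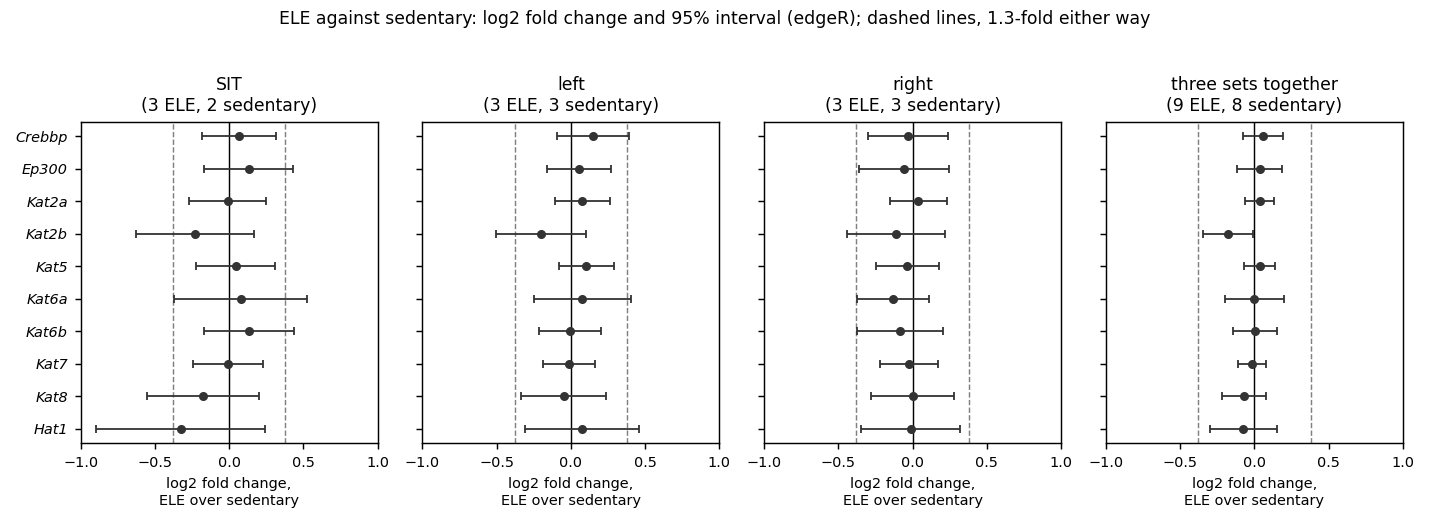
Log2 fold change of ELE over sedentary mice for each gene (points) with its 95% interval from edgeR (bars), in SIT, left, right and all 3 sets together, with dashed lines at 1.3-fold either way. In the panel of the 3 sets together all 10 intervals lie between the dashed lines, and only that of Kat2b does not reach 0.

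The CBP and p300 pair, coactivators that CREB and many other factors recruit, had fold changes of the same sign as each other within each set, above 0 in SIT and on the left and below 0 on the right, none with an unadjusted p under 0.05. Crebbp had 49.7, 52.2 and 46.9 CPM in ELE SIT libraries and 47.3 and 47.4 in sedentary ones. On the left it had 46.6, 59.4 and 52.7 CPM in ELE and 44.8, 49.0 and 49.1 in sedentary mice, and on the right 57.3, 50.6 and 46.6 against 58.0, 45.1 and 54.9. ELE and sedentary values overlapped in all 3 sets, and the log2 fold change was 0.07 (SE 0.112) in SIT, 0.15 (SE 0.105) on the left, -0.03 (SE 0.122) on the right and 0.06 (SE 0.064) over the 3 sets together. Ep300 had 43.6, 40.6 and 37.6 CPM in ELE SIT libraries against 33.6 and 40.4 in sedentary ones. Its left values were 45.4, 49.3 and 51.5 in ELE and 42.4, 49.1 and 49.0 in sedentary mice. The right values were 51.5, 38.1 and 53.7 in ELE and 52.7, 44.9 and 51.6 in sedentary mice. These overlapped too, with log2 fold changes of 0.13 (SE 0.135), 0.05 (SE 0.0954) and -0.06 (SE 0.136) in the 3 sets and 0.04 (SE 0.072) over all of them.

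Of the GNAT enzymes, which share SAGA and ATAC as alternative catalytic subunits, Kat2a had 4.98 to 8.61 times the level of Kat2b per length in every compared library. Kat2a was steady, with group means from 67.6 to 73.4 CPM and a log2 fold change of 0.04 (SE 0.047) over the 3 sets. Kat2b had 11.7, 12.3 and 15.1 CPM in ELE SIT libraries against 14.7 and 15.8 in sedentary ones. On the left its values were 17.4, 12.8 and 16.2 CPM in ELE and 17.5, 17.9 and 17.9 in sedentary mice, and on the right 14.4, 14.6 and 16.6 against 15.7, 14.3 and 19.2. The left groups did not overlap, whereas the SIT and right groups did. The 6 oligodendrocyte markers together were also lower without overlap in left ELE mice, at 2844 to 3067 CPM against 3141 to 3656, while they overlapped in SIT (2593 to 3817 against 3347 to 3607) and on the right (2583 to 2911 against 2312 to 3835). In SIT the excitatory neuron markers were higher in ELE without overlap (7132 to 7845 CPM against 6763 to 6819) and the 5 choroid plexus markers lower (129 to 576 CPM against 588 to 671), while both overlapped on the left and on the right. The part of these markers in the values of Kat2b, and of Hat1 in SIT given below, was not tested. On the left, 2 of 10 members had groups that did not overlap, Kat2b being lower and Kat5 higher in ELE, beside 10.8% of all genes. In SIT and on the right 0 members did, beside 22.1% and 7.69% of all genes.

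The log2 fold change of Kat2b was -0.23 (SE 0.178) in SIT, -0.20 (SE 0.133) on the left and -0.11 (SE 0.148) on the right. Over the 3 sets it was -0.18 (SE 0.082, 95% interval -0.35 to -0.01, adjusted p = 0.66). It thus failed the correction for all genes tested. The single-set values depended on single libraries. On the left the value was -0.08 without the ELE library at 12.8 CPM and -0.30 without the one at 17.4, and on the right it turned to 0.02 without the sedentary library at 19.2 CPM and was -0.21 without the one at 14.3. In SIT it lay between -0.35, without the ELE library high in rRNA, and -0.16. With all 8 SIT libraries the value was -0.25 (adjusted p = 0.42) over the 3 sets and -0.39 (adjusted p = 0.52) in SIT, where 1 of 10 members and 9.07% of all genes then had an unadjusted p under 0.05 and the 2 libraries that stood apart had 17.6 and 20.2 CPM. Leaving out single libraries moved the value over the 3 sets between -0.21 and -0.14, and the unadjusted p stayed under 0.05 in 10 of the 22 alternatives tried.

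The MYST enzymes are named after MOZ (Kat6a), Ybf2/Sas3, Sas2 and TIP60 (Kat5), and several of them acetylate H4. Kat5 had 44.9 to 46.2 CPM in left ELE and 39.6 to 44.0 in left sedentary mice, groups that did not overlap, but 41.5 to 45.8 against 43.4 to 48.7 on the right and 38.6 to 42.2 against 38.2 to 40.9 in SIT. Its log2 fold changes were 0.10 (SE 0.081), -0.03 (SE 0.096) and 0.04 (SE 0.119). Kat8, the main enzyme for lysine 16 of H4, had 14.2 to 17.8 CPM in ELE and 15.2 to 19.1 in sedentary mice over the 3 sets, with a log2 fold change of -0.07 (SE 0.072). Kat7 had group means of 91.5 and 92.1 CPM in ELE and sedentary SIT libraries, 75.5 and 76.0 on the left and 73.5 and 74.8 on the right, and a log2 fold change of -0.02 (SE 0.045). Kat6a and Kat6b, catalytic subunits of complexes built on BRPF scaffolds, had log2 fold changes of 0.00088 (SE 0.096) and 0.0045 (SE 0.071) over the 3 sets. The ELE library high in rRNA was the one at 30.4 CPM of Kat6a, and the log2 fold change of Kat6a in SIT was 0.08 with it and 0.27 (adjusted p = 0.45) without it, and the part of the rRNA share in this was not tested. On the right, without the ELE library at 49.2 CPM of Kat6b, the log2 fold change of Kat6b was -0.25 (adjusted p = 0.98).

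Hat1 had 4.75 to 7.59 CPM in ELE and 6.70 to 8.88 in sedentary SIT libraries, ranges that overlapped. On the left it had 6.47 to 9.01 CPM in ELE and 6.90 to 7.84 in sedentary mice, and on the right 7.18 to 8.52 against 7.71 to 8.01. Its log2 fold change was -0.33 (SE 0.255) in SIT and -0.07 (SE 0.108) over the 3 sets. The SIT value moved between -0.51 and -0.11 when single libraries were left out, being -0.11 without the sedentary library at 8.88 CPM and -0.51 without the one at 6.70, and it was -0.11 in the mice numbered NT6 alone, where 1 of the 2 ELE libraries is the ELE library that the study left out. The lowest value, 4.75 CPM, was that of the library high in rRNA, without which the fold change in SIT was -0.17.

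Whether the response to ELE or the level without it differed by hemisphere was tested in the separately isolated libraries. The exercise by hemisphere interaction gave no member an adjusted p under 0.05 (0% of all genes) or an unadjusted p under 0.05 (2.60%), with interaction terms from -0.21 for Kat6a to 0.09 for Kat2b. Only 2 of 10 intervals lay within 1.3-fold there (15.5% of all genes). Over left and right together, no member had an adjusted (0.00532%) or unadjusted (5.31%) p under 0.05, and the values ran from -0.15 for Kat2b to 0.06 for Crebbp. Between left and right hippocampi of sedentary mice no member differed at an adjusted (0%) or unadjusted (2.49%) p under 0.05, nor with DESeq2 after adjustment. The left to right values lay between -0.17 for Kat6a and 0.11 for Kat2b. Kat2a had 67.2 to 68.3 CPM on the left and 68.4 to 75.3 on the right, the only member whose 2 sedentary groups did not overlap (7.70% of all genes), with a log2 fold change of -0.08 (SE 0.076).

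The isolation methods were compared in sedentary mice, with 2 SIT libraries against 6 separate ones. Kat7 was higher and Ep300 lower in SIT, the other 8 members did not pass the adjusted threshold, and 13.6% of all genes did. Kat7 had 92.2 and 91.9 CPM in the 2 SIT libraries, against 74.1, 76.5 and 77.5 on the left and 77.5, 74.2 and 72.7 on the right, and the groups were far apart. Its log2 fold change was 0.29 (SE 0.065, adjusted p = 0.013 with edgeR). Ep300 had 33.6 and 40.4 CPM in SIT, against 42.4 to 49.1 on the left and 44.9 to 52.7 on the right, without overlap. Its log2 fold change was -0.38 (SE 0.106, adjusted p = 0.032 with edgeR). These 2 of 10 members were also the ones whose groups did not overlap (29.8% of all genes). Crebbp had a log2 fold change of -0.08 (SE 0.104, 95% interval -0.31 to 0.14), and whether it differed from that of Ep300 was not tested. The ratio of Ep300 to Crebbp per length was 0.674 to 0.833 in the 5 compared SIT libraries of both exercise groups and 0.714 to 1.09 in the 12 separate ones, which overlap.

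The 2 differences did not rest equally on the libraries chosen. With the 2 sedentary SIT libraries that stood apart included, Kat7 kept its value (91.2 and 92.2 CPM in them, log2 fold change 0.28, adjusted p = 0.0093) and was the 1 member to pass the adjusted threshold, beside 12.5% of all genes. That of Ep300 went to -0.05 (adjusted p = 0.86), as those libraries had 61.8 and 50.5 CPM. Without the sedentary SIT library at 33.6 CPM of Ep300, the log2 fold change of Ep300 was -0.25 (adjusted p = 0.31), and without either of 4 separate libraries its adjusted p was 0.054 to 0.060. For Kat7, leaving out 1 of the 2 SIT libraries kept the value at 0.29 with adjusted p of 0.085 and 0.11, in a fit where the lone SIT library is assumed to vary like the others. The ELE libraries were in no part of this test. Kat7 had 83.3 to 96.7 CPM in the 3 ELE SIT libraries and 69.1 to 78.9 in the 6 separate ELE ones, which did not overlap either. Ep300 had 37.6 to 43.6 CPM in the ELE SIT libraries and 38.1 to 53.7 in the separate ELE ones, which overlapped. In the compared sedentary libraries the mitochondrial share was 0.245% to 0.426% in SIT and 0.0704% to 0.103% in separate isolation, and inhibitory neuron markers summed to 75.4 to 76.1 CPM in SIT and 40.5 to 62.6 in separate isolation. All 7 excitatory neuron markers together had 6763 to 6819 CPM in SIT against 8332 to 9882, and the 6 astrocyte markers 2235 to 2317 CPM against 2748 to 5289. Their part in the result was not tested. The numbers of the sedentary SIT mice (NT6 and NT7.2) also began differently from those of the separately isolated sedentary mice (TG). SIT used both hippocampi, so that in sedentary mice isolation method, tissue and mouse series cannot be told apart. The ELE SIT mice numbered TG7.4 had 96.7 and 83.3 CPM of Kat7, and the part of the mouse series was not tested.

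**Figure D4:**
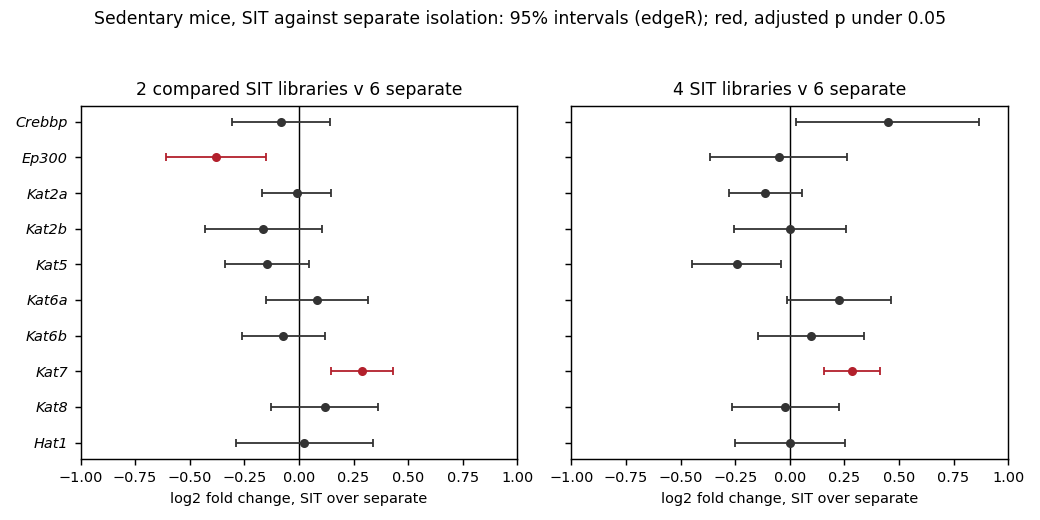
Log2 fold change of SIT over separate isolation in sedentary mice for each gene (points) with 95% intervals from edgeR (bars), with the 2 compared SIT libraries (left) and with all 4 sedentary SIT libraries (right), red where the adjusted p is under 0.05. Kat7 is red in both panels at 0.29 and 0.28, Ep300 only in the left panel, and Crebbp moves from -0.08 to 0.45.

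Crebbp moved most when the libraries that stood apart were included. They held 101 and 78.2 CPM of it, 2.13 and 1.65 times the mean of the compared sedentary SIT libraries, and no other library exceeded 59.4 CPM. Ep300 was 1.67 and 1.36 times that mean in them, Kat6b 1.45 and 1.05 times, Kat6a 1.34 and 1.08 times, and Kat2b 1.15 and 1.33 times, whereas Kat8 was lower at 0.918 and 0.723 times, Kat2a at 0.923 and 0.812 times, Kat5 was at 0.768 times in 1 of them, and Kat7 was close to that mean in both. With all 8 SIT libraries, the ELE to sedentary value of Crebbp in SIT turned from 0.07 to -0.41 (adjusted p = 0.61), that of Ep300 from 0.13 to -0.19 (adjusted p = 0.75), that of Kat6b from 0.13 to -0.06 and that of Kat6a from 0.08 to -0.05, while Kat2a went from -0.01 to 0.09 and Kat7 from -0.0086 to 0.0033. The values of Hat1 and Kat8 in SIT moved towards 0, to -0.19 and -0.02 from -0.33 and -0.18. Over the 3 sets, Crebbp turned from 0.06 to -0.13 (adjusted p = 0.75), Ep300 from 0.04 to -0.08, Kat6a from 0.00088 to -0.04 and Kat6b from 0.0045 to -0.05. With all 8 SIT libraries, none of the members passed the adjusted threshold in SIT or over the 3 sets. The inhibitory neuron and microglia markers and the mitochondrial share, given above, were also far higher in these 2 libraries, and their part in the result was not tested. Both mice had numbers that begin with NT7.2, which no ELE mouse shared, and the ELE mice numbered TG7.4 had no sedentary counterpart in SIT, so that group and mouse series cannot be told apart there. Within the mice numbered NT6, 2 of each group and with the left-out ELE library as 1 of them, the values were 0.15 for Crebbp, 0.18 for Ep300 and -0.32 for Kat2b, none with an adjusted p under 0.05.

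The enzymes act with subunits, readers and a supply of acetyl-CoA, and 85 such genes were examined beside them, all with enough counts to be tested. None differed between ELE and sedentary mice at an adjusted p under 0.05 in SIT, on the left, on the right or over the 3 sets with edgeR. At an unadjusted p under 0.05, 2 of 85 passed in each single set (2.35%), beside 5.48%, 3.94% and 2.78% of all genes in SIT, left and right, and 6 passed over the 3 sets (4 higher and 2 lower, 7.06%), beside 7.25% of all genes. These shares were near or below those of all genes, so that the genes named next are a description and the counts are no result about the lists. Their median log2 fold change was 0.02 over the 3 sets, against -0.0029 for all genes tested.

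Of the 9 MOZ, MORF and HBO1 subunits, 1 had an unadjusted p under 0.05 over the 3 sets. Jade1, a scaffold that directs Kat7 to H4, had a log2 fold change of -0.20 (SE 0.063, adjusted p = 0.43), with -0.34 (SE 0.107) on the right, -0.26 (SE 0.125) in SIT and -0.02 (SE 0.093) on the left. Of the 16 NuA4 subunits, the partners of Kat5, 1 had a higher and 1 a lower value at that threshold. Mrgbp, a small adaptor, had 0.22 (SE 0.092, adjusted p = 0.62), with 0.37 on the right, 0.34 in SIT and -0.02 on the left. Vps72, which binds the variant histone H2A.Z, had -0.14 (SE 0.055, adjusted p = 0.59) and lay below 0 in all 3 sets.

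Of the 23 SAGA and ATAC subunits, 1 passed the unadjusted threshold. Supt7l, a structural subunit of SAGA, had 0.17 (SE 0.080, adjusted p = 0.68) over the 3 sets and 0.30 (SE 0.122) on the left. None of the 11 MSL and NSL subunits or 5 Hat1 partners did so over the 3 sets, although Msl2, the ubiquitin ligase of the MSL complex, had 0.30 (SE 0.128, adjusted p = 0.91) in SIT, against 0.01 on the left and -0.15 on the right. Of 8 genes of acetyl-CoA supply, Acly, which makes acetyl-CoA from citrate in the cytosol and nucleus, had 0.12 (SE 0.055, adjusted p = 0.67) over the 3 sets, and Acss1, a mitochondrial enzyme that makes it from acetate, had -0.34 (SE 0.139, adjusted p = 0.90) in SIT. Among 13 other acetyltransferases and coactivators, Cdyl2, a chromodomain protein, had 0.64 (SE 0.294, adjusted p = 0.67) over the 3 sets. Its left ELE libraries ran from 2.75 to 9.40 CPM, and the value was 0.41 without the library at 9.40 and at most 0.77 without any other. Of the 4 readers of the BET family, none passed the unadjusted threshold over the 3 sets. Brdt had -0.26 (SE 0.087, adjusted p = 0.96) on the left, 0.03 on the right and -0.08 in SIT. On the left the count for the family was 1 of 4, beside 3.94% of all genes.

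Between isolation methods, 9 of the 85 genes differed at an adjusted p under 0.05 in sedentary mice, near the share of all genes given above. Morf4l2 (log2 fold change 0.40) and Yeats4 (0.33) of NuA4, Phf20 of NSL (0.47) and Wdr5 (0.33), which NSL and ATAC share, were higher in SIT. Msl2 (-0.33), Hcfc1 of NSL (-0.35), Brd2 (-0.30), Clock (-0.33) and Mcm3ap (-0.49) were lower. At an unadjusted p under 0.05, 10 of the 85 were higher and 12 lower in SIT (25.9%), beside 28.3% of all genes. By list, 4 were higher and 1 lower of the 23 SAGA and ATAC subunits, 4 higher and 2 lower of the 16 NuA4 subunits, 2 higher and 2 lower of the 11 MSL and NSL subunits, 1 higher of the 5 Hat1 partners, 7 lower of the 13 other acetyltransferases and coactivators, 1 lower of the 4 BET readers, and 0 of the 9 MOZ, MORF and HBO1 subunits and of the 8 genes of acetyl-CoA supply. Some genes belong to more than 1 list. These 9 genes were named after their values were seen.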

How the data were processed

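The 20 libraries hold TRAP-seq reads from Emx1-NuTRAP hippocampus. The authors aligned reads to GRCm38 with STAR 2.7.3a, removed duplicates with Picard 1.87, counted read pairs on exons by strand, and deposited these counts as whole numbers, not normalized. Columns carry mouse numbers and were assigned to the labelled groups through the library table of the paper, so that replicates carry no number of their own. The SIT libraries compared were the 3 ELE and 2 sedentary ones whose mean normalized counts matched those the study lists for 633 of 633 genes (next best of 24 subsets, 7 genes, within 0.1%). A second table, of wild-type hippocampus, has 24 columns that could not be matched to samples and was not used. Symbols and exonic lengths came from GENCODE vM21, which matched 54587 of 55335 genes with their version and 55154 without.

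Counts were filtered with filterByExpr, normalized with TMM and tested, two-sided, with the quasi-likelihood test of edgeR 4.0.16 (R 4.3.3), with Benjamini-Hochberg adjustment over all genes tested. Standard errors and 95% intervals are those of the log2 fold change in that fit. Levels are CPM, and CPM per kb for comparing genes. Log2 CPM for spreads used a pseudocount of 0.5. Promoter motifs were searched on both strands of RefSeq windows of GRCm38.p6. On simulated counts the same steps were tested with 200 changed genes per comparison.

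The members and gene lists were chosen with earlier results of these data known. All members are named. Of the lists of partner genes, up to 6 per comparison with the smallest unadjusted p under 0.05 in SIT, left, right and the 3 sets together are named. Alternatives were DESeq2 1.42.0, median-of-ratios size factors, no filter, all 8 SIT libraries, a block for the mouse number, other gene lengths, leaving out each library and, added after the values were seen, only SIT mice numbered NT6.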

Additional observations from a re-analysis of the deposited data

Results flagged for a closer look

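Among the 20 sets of 4 SIT libraries tested for a single distant value (10 genes in 2 groups, all 4 libraries used), 1 was flagged, where chance alone flags about 1 in 20. Kat6b had 56.9 CPM in 1 of the sedentary SIT libraries that the study left out, against 38.3, 40.4 and 41.4 CPM in the other 3. The gap to the nearest value was 0.836 of the whole range. The same library had the highest Crebbp (101 CPM) and Ep300 (61.8 CPM) of all 20 libraries. It is in none of the comparisons described above unless all 8 SIT libraries are named.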

How the results depend on the processing

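No result reversed its sign past a threshold, and in single-gene results 397 of the 398 values under other settings stayed on their side of the adjusted threshold, the exception being Ep300 between isolation methods with all 8 SIT libraries (-0.05). With all 8 SIT libraries, 1 member had an unadjusted p under 0.05 in SIT, 2 intervals there lay within 1.3-fold, and 1 member differed between isolation methods. With SIT mice numbered NT6 only, 1 interval lay within 1.3-fold. Without a filter on low counts, 0 members had an unadjusted p under 0.05 over the 3 sets. Per kb of the longest transcript, the levels were 21.5 (Kat2a), 19.2 (Kat5), 5.33 (Kat6b), 22.4 (Kat7), 10.1 (Kat8), 4.77 (Ep300), 4.66 (Crebbp) and 3.94 (Hat1) CPM per kb.

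Leaving out 1 library at a time gave 0 to 1 members with an unadjusted p under 0.05 in SIT, on the right and over the 3 sets, and 0 to 2 between left and right. Intervals within 1.3-fold numbered 1 to 4 in SIT (1 without either sedentary library), 5 to 9 on the left, 4 to 8 on the right and 9 to 10 over the 3 sets. Between isolation methods, 0 to 2 members passed the adjusted and 1 to 2 the unadjusted threshold, 0 passing without the sedentary SIT library at 33.6 CPM of Ep300. The cause was not tested.

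Replicate numbers are not tied to the columns. With a replicate block for how the mouse number begins, 1 interval in SIT lay within 1.3-fold and no member passed the adjusted threshold. Mice sharing that beginning did not deviate together throughout (correlations of -0.09 to 0.21 over 6 sets of mice), so the block was not treated as a pairing. At these depths Hat1, with 247 to 523 counts per library, had the widest intervals.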
